A study of Mus musculus with 91 samples.

Results

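The cells described here are the mesoderm-like cells of the early mouse caudal epiblast in which Lefty2 was read, set against the mesoderm-like cells in which it was not. A cell with 0 reads may still have transcribed the gene. A cell was taken as mesoderm-like where its CPM (the reads of a gene per 1000000 counted reads of that cell) of Aldh1a2, the retinaldehyde dehydrogenase of nascent paraxial mesoderm, were at least as high as those of Nkx1-2, a homeobox gene of the progenitor epiblast. This rule took 48 of the 91 cells, and of these 10 had at least 1 read of Lefty2 (Lefty2-positive) and 38 had 0 reads (Lefty2-negative). The other 43 cells are called epiblast-like. All cells were wild type, from the outbred strain MF1, at the early headfold stage (about embryonic day 8.0), and no agent was given. Pieces of caudal lateral epiblast, which flanks the node and the front of the primitive streak, were dissected with some nascent mesoderm still attached, pooled and dissociated, and single cells were sorted into the wells of a plate for Smart-seq2, which makes full-length cDNA without molecular identifiers. No embryo is named for any cell, so the cells form 1 pooled sample without replicates. No test was made between the classes, and each SD is a spread between cells.

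Lefty2 encodes a secreted member of the TGF-beta family that does not signal itself but blocks Nodal, by binding Nodal and its EGF-CFC co-receptors. Nodal signals through activin receptors to Smad2 and Smad3, which act on DNA with the forkhead factor Foxh1, and Lefty2 is itself a target of that pathway, so that it serves as a feedback inhibitor. In the mouse embryo Lefty2 is known from nascent mesoderm of the primitive streak and later from the left lateral plate mesoderm, while its neighbour Lefty1 is known mainly from the anterior visceral endoderm and the midline.

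Lefty2 lies on the plus strand of chromosome 1 (GRCm38, 180893108 to 180899103) and no other annotated gene overlaps it. Lefty1 begins 35919 bases further along the same strand. The coding sequences of both genes are 1107 bases long in 4 exons and differ at 90 positions when laid side by side without gaps (91.9% identity). Reads were 75 bases long, and of the 2399 windows of that length in the Lefty2 transcript 173 (7.21%) were identical to Lefty1. The first such window and the window with the most differences are printed to show how far a read can tell the genes apart. The identical window lies in exon 2 of both genes, at chr1:180894156-180894230 in Lefty2 and chr1:180936568-180936642 in Lefty1. The window with the most differences lies in exon 1, at chr1:180893234-180893308 in Lefty2 and chr1:180935160-180935234 in Lefty1, and its 23 differing bases are in capitals. The sequences are from the GENCODE M21 transcripts of GRCm38.
Lefty2, identical window: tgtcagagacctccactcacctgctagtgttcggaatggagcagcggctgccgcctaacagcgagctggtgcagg
Lefty1, identical window: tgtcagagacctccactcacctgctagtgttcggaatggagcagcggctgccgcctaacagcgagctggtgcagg
Lefty2, most different window: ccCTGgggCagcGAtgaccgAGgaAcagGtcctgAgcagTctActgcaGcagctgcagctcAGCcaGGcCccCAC
Lefty1, most different window: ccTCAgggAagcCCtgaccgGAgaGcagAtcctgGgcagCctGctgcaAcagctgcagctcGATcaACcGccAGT

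Lefty1 had 1 read in all 48 mesoderm-like cells, in the cell with the most Lefty2 (well F1), against 1444 reads of Lefty2 in that cell. The sources used here do not state how reads that match both genes were counted. A neighbour on the chromosome did not share the split between the classes. Sde2, which lies 24995 bases before Lefty2, averaged 119 ± 59.9 CPM in Lefty2-positive and 109 ± 85.5 CPM in Lefty2-negative cells (SD over cells).

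The classes were alike in most measures of library quality, with somewhat deeper libraries among the positive cells. The total count was 1831537 to 4439571 (median 2886043) in Lefty2-positive and 709866 to 4296934 (median 2510524) in Lefty2-negative cells, and 8 of the 10 positive cells lay above the negative median. Genes with reads numbered 7627 to 10448 (median 8174.5) in positive and 6261 to 9377 (median 7802.5) in negative cells, and the median was 7141.5 in positive against 6950 in negative cells after every cell had been thinned to 700000 counts. The highest value, 10448, belonged to well H3, and the next positive cell had 8852. Mitochondrial transcripts took a median of 4.50% of the counts in positive and 4.94% in negative cells. What these differences contribute to the values below was not tested.

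Markers of presomitic mesoderm were read in both classes. Tbx6 and Msgn1, transcription factors that define presomitic mesoderm, had reads in 10 of 10 positive and 38 of 38 negative cells, Tbx6 at a mean of 374 CPM in positive and 312 CPM in negative cells and Msgn1 at 164 CPM in positive and 151 CPM in negative cells. In the epiblast-like cells Tbx6 was read in 14 of 43 cells at 13 ± 36.9 CPM and Msgn1 in 5 of 43 at 1.23 ± 6.74 CPM. The positive cell D4 was low in both, with 62.4 CPM of Tbx6 and 1 read of Msgn1. Aldh1a2, which chose the cells, ranged over 752 to 3256 CPM (median 1220) in positive and 301 to 3179 CPM (median 1497) in negative cells. The mesoderm-like cell nearest to the limit was the negative cell G3, with 301 CPM of Aldh1a2 and 164 CPM of Nkx1-2, and the nearest cell outside it was B10, with 570 and 688 CPM. The positive cell nearest to the limit was D1, with 1734 CPM of Aldh1a2 and 489 CPM of Nkx1-2, the most Nkx1-2 of all 48 cells. Its Tbx6 level, 231 CPM, was below its Nkx1-2 level, so that D1 left the class where Tbx6 took the place of Aldh1a2 (9 positive of 44 cells).

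**Figure D1:**
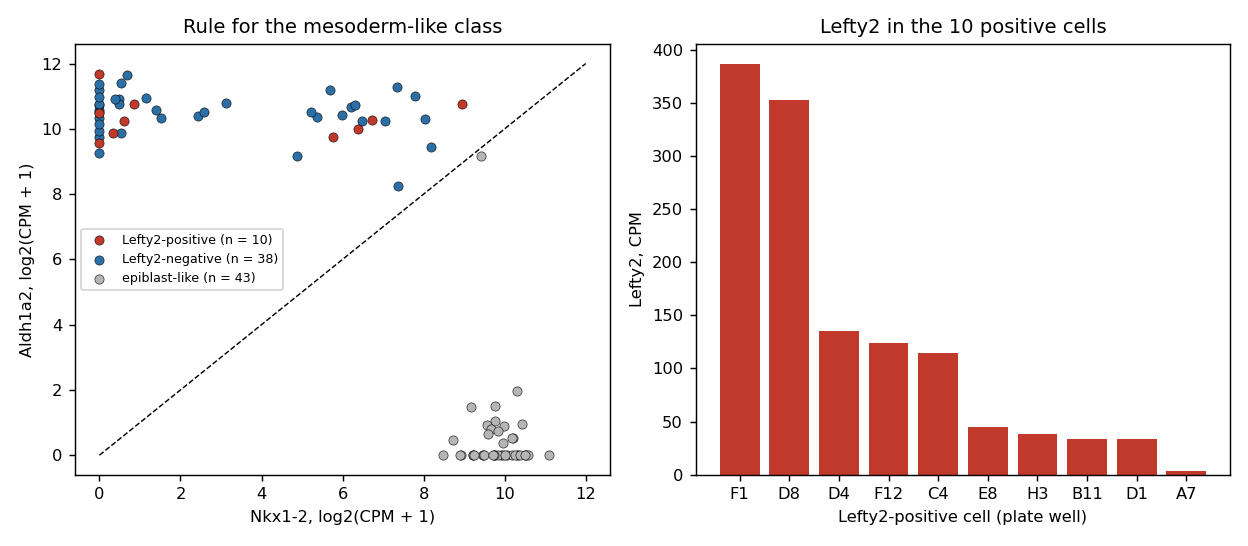
Left, Aldh1a2 against Nkx1-2 in each of the 91 cells, both as log2(CPM + 1), with the dashed line at equal levels; the 10 Lefty2-positive cells (red) are spread among the 38 Lefty2-negative cells (blue), and the 43 epiblast-like cells (grey) lie below the line. Right, bars of Lefty2 CPM in the 10 positive cells, from 386 in well F1 to 3.86 in well A7.

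Lefty2 reads were found in 10 of 48 mesoderm-like cells (20.8%, exact Clopper-Pearson interval 10.5 to 35%, counting error only) and in 0 of 43 epiblast-like cells (upper bound 8.22%). The 10 cells differed from each other by 100.05-fold. Lefty2 stood at 386 CPM in F1 and 353 CPM in D8, at 136, 124 and 115 CPM in D4, F12 and C4, at 45, 38, 33.5 and 33.3 CPM in E8, H3, B11 and D1, and at 3.86 CPM in A7. F1 and D8 together held 58.3% of the summed Lefty2 CPM, so that the class mean rests largely on them. The lowest positive cell had 10 reads and each negative cell had none, which leaves no cell with 1 to 9 reads. After thinning to 700000 counts all 10 cells still had a Lefty2 read. The positive wells lay in 7 rows of the plate. Wells C4 and D4 touch each other, as do D8 and E8, and the other positive wells touch no positive well. These values chose the classes and are given as a description.

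Genes with a read in at least 8 of the 48 cells were compared by the ratio of mean CPM, with 1 CPM added to each mean. A 2-fold difference was taken as the size worth naming. It is a size and not a test, and genes with few reads pass it easily. Of 12262 genes 781 (6.37%) were at least 2-fold higher and 1205 (9.83%) at least 2-fold lower in Lefty2-positive cells, and the median log2 ratio was -0.01. Higher genes thus made up 39.3% of those past 2-fold, but 70.1% (1534 higher, 654 lower) where means of log2(CPM + 1) were compared in place of mean CPM. Only 186 genes (1.52%) stayed higher and 792 (6.46%) stayed lower by 2-fold whichever single cell was left out. With 10 positive and 38 negative cells, leaving out 1 positive cell weighs more on its mean. What the unequal class sizes add to the difference between these counts was not tested. Among the 7376 genes with reads in 24 or more of the cells, 193 (2.62%) were higher and 319 (4.32%) lower. No gene besides Lefty2 had all positive cells above all negative cells, and for no gene did they all lie below them. Every gene named below therefore overlapped between the classes.

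The other ligands and secreted antagonists of the Nodal system had reads in few or no cells of either class, and none in enough cells to be compared. Nodal itself and its partners Gdf1 and Gdf3 had 0 reads in all 48 mesoderm-like cells. Dand5, an antagonist of Nodal known from the node, had reads in 2 of 10 positive cells (D8 with 284 reads and H3 with 75) and 2 of 38 negative cells. Cer1, an antagonist of Nodal and BMP, had 7596 reads (1711 CPM) in the positive cell D4 and none in the other 47 cells. The EGF-CFC co-receptor Tdgf1 (Cripto) had 69 and 7 reads in the positive cells D4 and D1 and 1 read in a single negative cell, and Cfc1 had 0 reads in positive cells and 1 read in 1 negative cell.

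Of 6 compared convertases, binding proteins and receptors of the pathway 0 were higher and 1 was lower, beside 6.37% higher and 9.83% lower over all genes. The median log2 ratio was -0.47 beside -0.01 over all genes. The type II activin receptor gene Acvr2b had reads in every mesoderm-like cell. It ranged over 54.8 to 275 CPM (median 118) in positive and 58.1 to 745 CPM (median 191) in negative cells, and 1 of 10 positive cells lay above the negative median, with a log2 ratio of -0.73. Tgfbr1, a type I receptor gene of the family, had reads in 8 of 10 positive and 25 of 38 negative cells at medians of 3.30 CPM in positive and 83.6 CPM in negative cells, with a log2 ratio of -0.92 that reached -2.82 without the positive cell E8 (417 CPM). Acvr2a, the other type II receptor gene and the 1 lower gene of this list, had a log2 ratio of -1.04, which moved between -1.65 and -0.83 with single cells left out. Acvr1b and the convertase gene Furin had log2 ratios of -0.21 and -0.17, which were -1.62 and -0.71 without the positive cell F12.

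Among 11 compared transducers and repressors 0 were higher and 1 was lower, beside 6.37% higher and 9.83% lower over all genes. Their median log2 ratio was -0.04. Foxh1, the DNA-binding partner of Smad2 and Smad3, had reads in 10 of 10 positive and 35 of 38 negative cells. It ranged over 36.3 to 397 CPM (median 200) in positive and 0 to 631 CPM (median 84.2) in negative cells, and 7 of 10 positive cells exceeded the negative median. The means were 194 ± 125 CPM in positive and 116 ± 119 CPM in negative cells, a log2 ratio of 0.74 that stayed between 0.56 and 0.92 with any cell left out and did not reach 2-fold. The epiblast-like cells averaged 46.1 ± 51.2 CPM. Within the positive class Foxh1 did not follow the order of Lefty2, since F1, with the most Lefty2, had 36.3 CPM of Foxh1, the least of the 10. Drap1, a corepressor known to restrain Foxh1 in the mouse, was the 1 lower gene. It ranged over 0 to 36.5 CPM (median 11.4) in positive and 0 to 88.4 CPM (median 25.5) in negative cells, with a log2 ratio of -1.15 (-1.46 to -1.01 with any cell left out). Smad2 had similar means (75.9 ± 94.6 CPM in positive and 71.9 ± 107 CPM in negative cells) but a median of 40.6 CPM in positive and 1.13 CPM in negative cells, with reads in 8 of 10 positive and 21 of 38 negative cells. The repressor genes Tgif1 (238 ± 147 CPM in positive and 240 ± 149 CPM in negative cells) and Skil (207 ± 234 CPM in positive and 213 ± 182 CPM in negative cells) had similar means. Smad3 had a log2 ratio of -0.74, and -2.03 without the positive cell B11. For Smad4 it was -0.52, and -1.05 without C4.

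Of 5 compared transcription factor genes that are targets or partners of Nodal signalling 1 was higher, 1 lower and 3 neither. The shares over all genes were 6.37% higher and 9.83% lower, and the list's median log2 ratio was 0.05. The higher gene, Otx2, met the minimum of 8 cells only with its positive cells counted. Otx2, a homeobox gene of epiblast and anterior tissue, had reads in 4 of 10 positive cells, at 38.9 CPM in E8, 14.2 in B11, 12.8 in F1 and 3.83 in D4, and in 6 of 38 negative cells, where the highest was 19.5 CPM. Its means were 6.98 ± 12.5 CPM in positive and 0.640 ± 3.18 CPM in negative cells (log2 ratio 2.28, 1.43 to 2.82 with any cell left out). Lhx1, a LIM homeobox gene of nascent mesoderm, had the opposite pattern. It had reads in 2 of 10 positive cells (151 CPM in F12 and 30.6 CPM in D1) and in 23 of 38 negative cells (median 14.8, highest 287 CPM), with a log2 ratio of -1.47 that was -3.59 without F12. Mixl1, a homeobox gene of the primitive streak, varied widely between cells in both classes. In the positive cells it stood at 1164, 946, 744, 480 and 461 CPM in H3, D8, A7, C4 and F1, at 84.2 CPM in B11, at 0.90 CPM in D4 and at 0 in D1, E8 and F12, beside a median of 176 and a highest value of 1340 CPM in negative cells. T (Brachyury) averaged 335 ± 222 CPM in positive and 451 ± 336 CPM in negative cells.

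**Figure D2:**
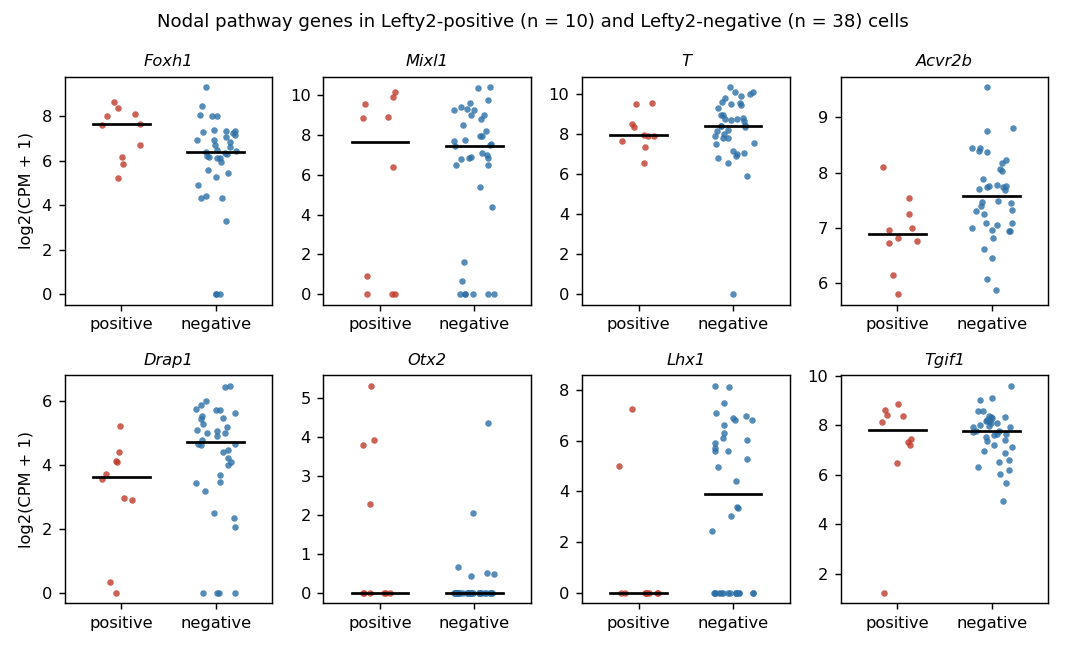
Levels of 8 genes of the Nodal pathway as log2(CPM + 1), 1 point per cell, in the 10 Lefty2-positive cells (left, red) and the 38 Lefty2-negative cells (right, blue), with black lines at the medians. The classes overlap in every panel; the median of Foxh1 is higher and those of Acvr2b, Drap1 and Lhx1 are lower in the positive cells.

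The gene furthest apart among those higher, with reads in at least 50% of the positive cells and past 2-fold whichever cell was left out, was Zbtb22, which encodes a zinc finger protein with a BTB domain. It had reads in 9 of 10 positive and 6 of 38 negative cells, and ranged over 0 to 150 CPM (median 43.4) in positive and 0 to 30.7 CPM (median 0) in negative cells. The means were 46.2 ± 41.6 CPM in positive and 2.73 ± 7.10 CPM in negative cells, a log2 ratio of 3.66 (3.26 to 3.99 with any cell left out), and 6 positive cells lay above the highest negative cell. D1 was the positive cell without a read. The next 11 genes had log2 ratios of 2.64 to 3.34, and each had reads in only 5 or 6 of the 10 positive cells. They include Miga2, a gene of mitochondrial fusion (22.2 ± 29.2 CPM in positive and 1.29 ± 4.57 CPM in negative cells), Cd38, an NAD glycohydrolase gene (48.2 ± 87.5 CPM in positive and 6 ± 25.4 CPM in negative cells), the histone acetyltransferase gene Kat6b (28 ± 38.1 CPM in positive and 3.26 ± 12.2 CPM in negative cells) and Tcn2, which encodes a vitamin B12 carrier (32 ± 48.8 CPM in positive and 3.85 ± 11.5 CPM in negative cells). The others were Ccdc173, Ankrd45, Klhl3, Thap6, Lrp10, Ccdc92 and Gm42508. Except Ankrd45 and Gm42508, these 11 genes and Zbtb22 met the minimum of 8 cells only with their positive cells counted. Gm42508 was read in a smaller share of the positive than of the negative cells (6 of 10 and 26 of 38), and its mean of 10.4 CPM in positive cells (0.817 CPM in negative cells) came mostly from H3 with 197 reads and F12 with 136. Its log2 ratio of 2.64 was 1.57 without H3.

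By the share of cells with a read after thinning, and chosen after their values were seen, Nrp2, Prkag1 and Spdl1 came next to Zbtb22. Nrp2, a receptor gene for semaphorins and VEGF, had reads in 10 of 10 positive and 13 of 38 negative cells at 45.1 ± 38 CPM in positive and 15.4 ± 32.8 CPM in negative cells. Prkag1, a subunit of the AMP-activated kinase, had reads in 10 of 10 positive and 14 of 38 negative cells at 28.3 ± 10.7 CPM in positive and 10.9 ± 19 CPM in negative cells. Spdl1, a gene of the kinetochore, had reads in 9 of 10 positive and 10 of 38 negative cells at 88.7 ± 45.7 CPM in positive and 16.4 ± 37.4 CPM in negative cells.

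Among the lower genes chosen by the same rule, Zfp141 had the largest difference, at 0.775 ± 1.88 CPM in positive and 47.3 ± 83.8 CPM in negative cells (log2 ratio -4.77). Kdm3a, a histone H3 lysine demethylase gene, had reads in 3 of 10 positive and 27 of 38 negative cells, with a median of 0 CPM in positive and 43.7 CPM in negative cells and a log2 ratio of -3.20, which was -5.31 without the positive cell B11 (67.9 CPM). Rictor, a core component of the mTORC2 kinase complex, had reads in 5 of 10 positive and 27 of 38 negative cells at 3.11 ± 4.57 CPM in positive and 40.9 ± 69.9 CPM in negative cells. The bicarbonate transporter gene Slc4a7 stood at 7.11 ± 12.5 CPM in positive and 70.8 ± 101 CPM in negative cells. The other lower genes of the group were Gm3604, Ptprn, Mtg2, Uhrf1bp1l, Tmem87a, Rbfa, Jag1 and Stxbp6, with log2 ratios of -4.37 to -3.19. Of the exon bases of Rbfa 43.9% overlap another annotated gene, so its counts are uncertain. Chosen after their values were seen, Foxm1, a transcription factor of mitotic genes, had reads in 2 of 10 positive and 29 of 38 negative cells (17 ± 46.8 CPM in positive and 56.8 ± 79.5 CPM in negative cells), and the kinase gene Snrk had reads in 0 of 10 positive and 18 of 38 negative cells.

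The BMP response gene Id1 was not read in any positive cell. It had reads in 17 of 38 negative cells (44.7%), with a mean of 22.2 ± 36.7 CPM and a highest value of 171 CPM. With 0 of 10 positive cells read, the upper bound for their share was 30.8%, so no least fold is given. Id3, a second gene of this kind, was at 3.38 ± 10.1 CPM in positive and 12 ± 42.2 CPM in negative cells, and its log2 ratio of -1.57 moved between -3.47 and -0.59 with single cells left out. The receptor gene Bmpr2 was at 28.5 ± 47.5 CPM in positive and 9.57 ± 29.7 CPM in negative cells, with a log2 ratio of 1.48 (0.84 without B11). Over the 7 compared genes of the BMP list 1 was higher and 2 were lower, beside 6.37% higher and 9.83% lower over all genes. The median log2 ratio of the list was -0.33.

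Of 12 compared genes of the Notch pathway and segmentation clock 0 were higher and 3 (Jag1, Lfng and Dkk1) were lower, beside 6.37% higher and 9.83% lower over all genes (median log2 ratio -0.30). Jag1, a Notch ligand gene, had reads in 2 of 10 positive cells (38.2 CPM in A7 and 5.94 in C4) and 22 of 38 negative cells, at 4.41 ± 12 CPM in positive and 48.6 ± 57.6 CPM in negative cells, with a log2 ratio of -3.20 (-4.90 to -3.07 with any cell left out). Lfng, which encodes a glycosyltransferase acting on Notch, had reads in 2 of 10 positive and 23 of 38 negative cells (log2 ratio -1.36, -2.99 without the positive cell D4 and -0.96, no longer past 2-fold, without the negative cell B8). The ligand genes Dll1 (mean 320 CPM in positive, 402 CPM in negative cells) and Dll3 (315 CPM in positive, 268 CPM in negative cells) and the clock gene Hes7 (107 CPM in positive, 147 CPM in negative cells) differed by less than 2-fold.

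Of 19 compared Wnt pathway genes 0 were higher and 2, Wnt5b and the antagonist gene Dkk1, were lower, beside 6.37% higher and 9.83% lower over all genes. A further gene fell just short of 2-fold higher, at a log2 ratio of 0.99999. The log2 ratio of Dkk1, -1.17, was -0.73 and no longer past 2-fold without the negative cell A3 (1202 CPM). Wnt5b had reads in 1 of 10 positive cells (59.2 CPM in H3) and 22 of 38 negative cells, with a log2 ratio of -1.91 that was -4.70 without H3. Of 14 Fgf pathway genes 1, the ligand gene Fgf17, was higher (log2 ratio 1.04, 0.06 without E8) and 1, the feedback inhibitor Il17rd, was lower (-1.91, and -4.71 without H3). Fgf8 and Wnt3a, ligands of the caudal progenitor region, had log2 ratios of -0.55 and -0.37, which were -1.79 without F12 for Fgf8 and -0.97 without D8 for Wnt3a.

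Of 11 compared retinoic acid genes 1 was higher and 1 lower, beside 6.37% higher and 9.83% lower over all genes (median log2 ratio -0.15). Rdh10, the retinol dehydrogenase that acts before Aldh1a2, had reads in 6 of 10 positive and 10 of 38 negative cells. It ranged over 0 to 247 CPM (median 63.3) in positive and 0 to 106 CPM (median 0) in negative cells, at means of 80.2 ± 90.1 CPM in positive and 14.8 ± 29.6 CPM in negative cells, with a log2 ratio of 2.36 (1.99 to 2.61 with any cell left out). Stra6, the retinol uptake receptor, had reads in 5 of 10 positive and 27 of 38 negative cells at 21.2 ± 31.3 CPM in positive and 73.6 ± 96.3 CPM in negative cells, a log2 ratio of -1.75.

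**Figure D3:**
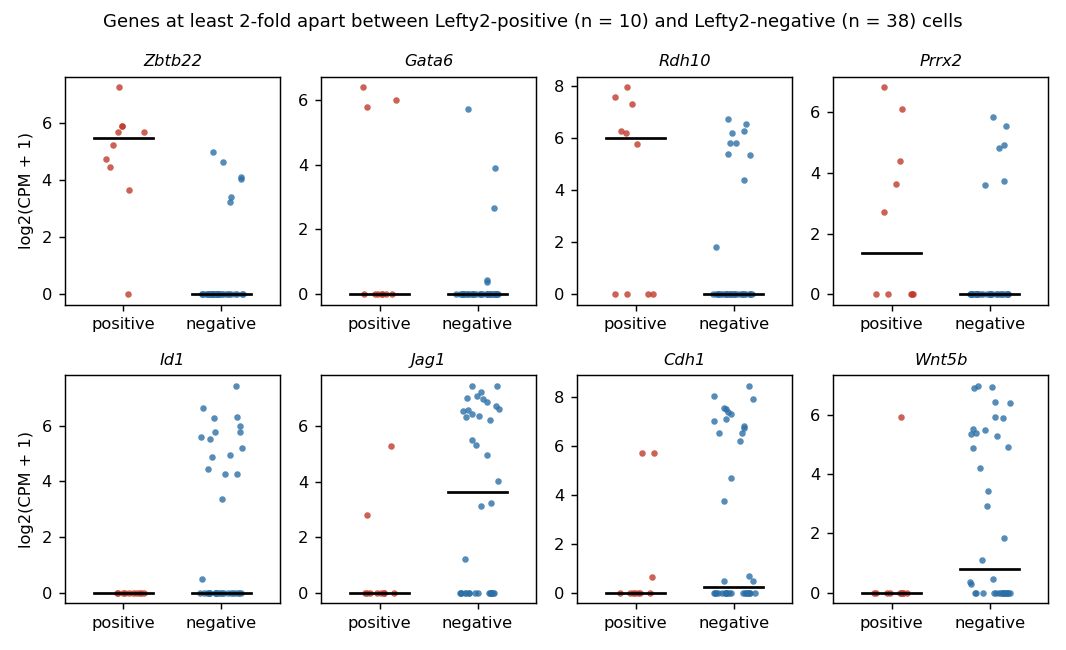
Levels of 8 genes past 2-fold as log2(CPM + 1), 1 point per cell, in the 10 Lefty2-positive cells (left, red) and the 38 Lefty2-negative cells (right, blue), with black lines at the medians. Zbtb22, Rdh10 and Prrx2 have higher medians in the positive cells, Gata6 is read in 3 of the 10 positive cells, and Id1 is at 0 in all 10.

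Most presomitic, somite and mesenchymal marker genes differed by less than 2-fold between the classes. Of 16 compared presomitic genes 1 (Pcdh8) was higher and 1 (Lfng) lower, beside 6.37% higher and 9.83% lower over all genes. The presomitic median log2 ratio was 0.16, and none of the 12 compared mesenchymal genes was past 2-fold. The mesenchymal log2 ratios ran from -0.61 (Snai1) to 0.96. Snai1 was at -1.46, past 2-fold, without the positive cell D4. Of 7 genes of somite and anterior paraxial mesoderm 1 (Tcf15) was higher. Pcdh8 and Tcf15 rested on D4, and their log2 ratios of 1.24 and 1.28 were 0.06 and 0.27 without it. Of 3 compared intermediate mesoderm genes Lhx1 was lower and Emx2 higher, with 59 CPM of Emx2 in the positive cell C4 and a log2 ratio of 1.63 that was 0.76 without it.

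Only 3 of 16 lateral plate and extraembryonic mesoderm genes had reads in enough cells, and 2 of these (Gata6 and Prrx2) were higher, where 6.37% of all genes were. Both met the minimum of 8 cells only with their positive cells counted, so this count leans on the filter. Gata6, a zinc finger gene of lateral plate, cardiac and endodermal tissue, had reads in 3 of 10 positive cells (82.4 CPM in E8, 62.2 in D4 and 53.8 in D8) and in 5 of 38 negative cells, of which the highest had 52.1 CPM. Its log2 ratio was 2.85 (2.26 to 3.76 with any cell left out), and 0 of 43 epiblast-like cells had a read. Prrx2, a homeobox gene of mesenchyme, had reads in 5 of 10 positive and 6 of 38 negative cells at 21.6 ± 37.9 CPM in positive and 4.83 ± 13.1 CPM in negative cells (log2 ratio 1.96, and 1.11 without E8), also with none in epiblast-like cells. Below the minimum of 8 cells, Gata4 was read in 2 positive cells (D1 with 38.8 CPM, and F1) and no negative cell, and Bmp4 in 4 of 10 positive cells (highest 79.4 CPM in C4) and 3 of 38 negative cells (highest 30.6 CPM). Isl1 was read in 5 of the 48 cells, most in the negative cell C12 (81 CPM) and next in the positive cell F1 (79.4 CPM). Hand2, Gata5, Nkx2-5 and Tbx5 had 0 reads in all 48 cells, and Hand1 had 11 reads in 1 negative cell. The summed level of the 16 genes ranged over 0 to 194 CPM (median 69.9) in positive and 0 to 121 CPM (median 2.89) in negative cells.

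Of 9 compared epiblast genes 0 were higher and 3 (Cdh1, Nanog and Sox2) were lower, beside 6.37% higher and 9.83% lower over all genes. The median log2 ratio of the list was -0.45. Its highest member was Nkx1-2, which helped to choose the cells, at a log2 ratio of 0.69 with 489 CPM in D1. Nkx1-2 averaged 73 ± 151 CPM in positive and 44.9 ± 77.5 CPM in negative cells. Sox2 was past 2-fold through the negative cell E12 (37 CPM), and its log2 ratio of -1.02 was -0.29 without it, with reads in 5 of 10 positive and 21 of 38 negative cells. Cdh1, the epithelial cadherin, had reads in 3 of 10 positive cells (51.7 CPM in H3, 51 in D8 and 0.53 in F1) and in 19 of 38 negative cells (highest 348 CPM), at 10.3 ± 21.6 CPM in positive and 60.7 ± 90.9 CPM in negative cells and with a log2 ratio of -2.45. Nanog was lower by mean (1.85 ± 1.55 CPM in positive and 8.12 ± 23.8 CPM in negative cells) but its median was 1.33 CPM in positive and 1.89 CPM in negative cells. The keratin gene Krt8 was at 6.50 ± 11 CPM in positive and 23.6 ± 28.2 CPM in negative cells, with 23.5% of its 75-base windows shared with other annotated genes. Of 11 primitive streak genes 1 was higher and 3 were lower, beside the same shares over all genes. Among the lower was Cdx2 (8.84 ± 14.5 CPM in positive and 21.1 ± 30.3 CPM in negative cells).

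**Figure D4:**
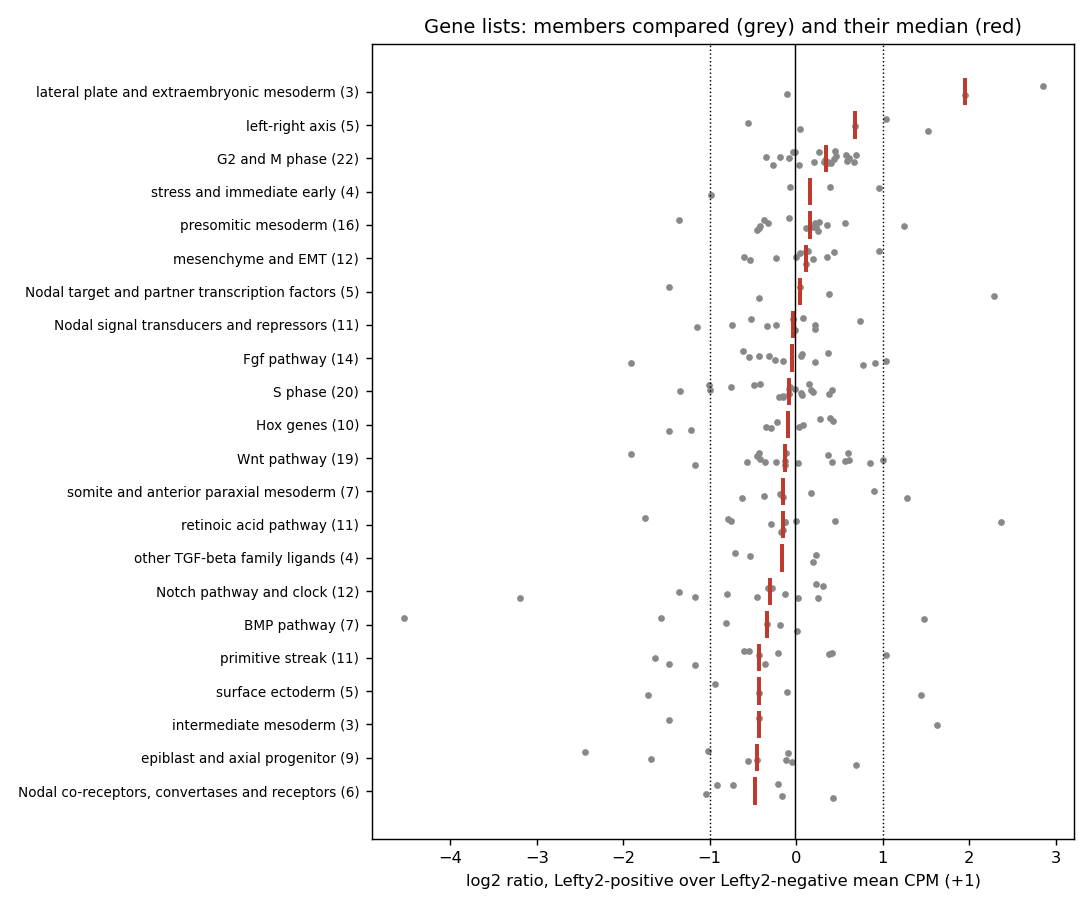
Log2 ratios of mean CPM (Lefty2-positive over Lefty2-negative, 1 CPM added to each mean) for each compared member (grey points) of the lists with at least 3 compared genes, with the list's median in red and the number of genes in brackets. The solid line is the median of all 12262 genes (-0.01) and the dotted lines mark 2-fold; most medians lie near the solid line and most members within 2-fold.

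Of 22 cell cycle genes of the G2 and M phases none was past 2-fold, with a median log2 ratio of 0.35 beside -0.01 over all genes. Their log2 ratios ran from -0.35 to 0.69, and the genes given next lie towards the upper end. Cdk1, the main mitotic kinase gene, averaged 344 CPM in positive and 228 CPM in negative cells, the cyclin gene Ccnb1 479 CPM in positive and 313 CPM in negative cells, and the kinase gene Plk1 272 CPM in positive and 182 CPM in negative cells. The summed level of the list ranged over 2848 to 10871 CPM (median 6316) in positive and 1597 to 9692 CPM (median 4586) in negative cells. Of 20 S phase genes 2 (Cdt1 and E2f1) were lower, where 9.83% of all genes were, with a median log2 ratio of -0.08. E2f1, at -1.01, was no longer past 2-fold without the negative cell F6 (-0.62) or with either other scaling of the libraries, and Cdt1 was at -1.35, and -2.43 without the positive cell F1. Of 10 compared Hox genes 2 (Hoxa2 and Hoxb5) were lower, beside 9.83% of all genes.

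Markers of other cell types that a dissection of this region could hold differed in how far they were read. No endoderm gene of 10 could be compared, Sox17 and Foxa1 had 0 reads in all 48 cells, and the summed endoderm level had a median of 0 in both classes, with a highest value of 1711 CPM in D4 from Cer1. Of 14 blood and endothelial genes 7 had no read, among them Kdr and Tal1. The summed level of this list ranged over 0 to 212 CPM (median 122) in positive and 0 to 438 CPM (median 80.4) in negative cells, most of it from Lmo2, a transcription cofactor gene of blood and endothelium (108 ± 70.7 CPM in positive and 103 ± 109 CPM in negative cells). The surface ectoderm list summed to a median of 46.3 CPM in positive and 70.2 CPM in negative cells, with Trp63 unread. Of the node and notochord list Noto and Shh had no read and Foxa2 had reads in 1 negative cell. The part that such cells have in the ratios was not tested.

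The 10 positive cells were not alike in their other genes. D4, with 136 CPM of Lefty2, stood apart in the paraxial genes. It had the least Tbx6 of all 48 cells (62.4 CPM) and 1 read of Msgn1, and the most Tcf15 (188 CPM), Pcdh8 (548 CPM), Ripply2 (430 CPM), Pax3 (46.4 CPM), Fgfr2 (528 CPM), Rdh10 (247 CPM) and Cer1. Ripply2 is known for setting the somite boundary in anterior presomitic mesoderm and Pax3 for early somites. Pax3 and Cer1 were read in no other mesoderm-like cell. D1 differed in another way, with the most Nkx1-2 of the 48 cells (489 CPM), 36.6 CPM of Msgn1 and no Mixl1 read. F12 had 743 CPM of T and 151 CPM of Lhx1, and H3 1164 CPM of Mixl1. F1, with the most Lefty2, had the least T of the 10 (94.3 CPM) and 79.4 CPM of Isl1, a LIM homeobox gene of cardiac progenitors, which no other positive cell had above 1 read. The negative cells C12 and B6 had 81 and 48.3 CPM of Isl1. These genes were picked out after their values were seen.

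**Figure D5:**
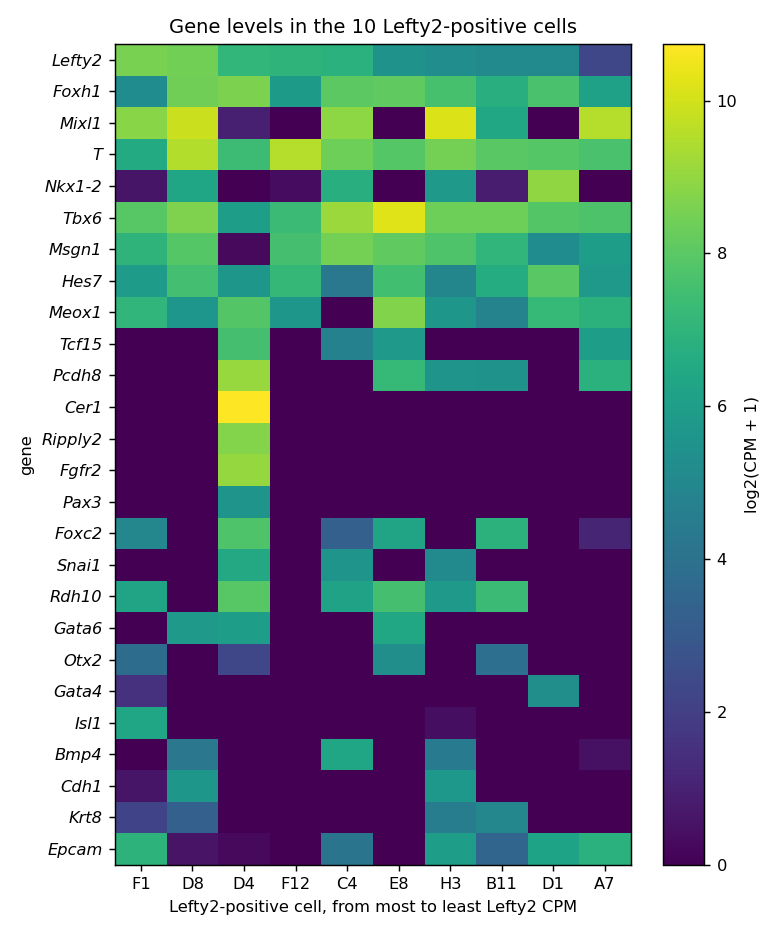
Heat map of log2(CPM + 1) of 26 genes (rows) in the 10 Lefty2-positive cells (columns, ordered from most to least Lefty2), with dark squares at 0 reads. Lefty2, Foxh1, T and Tbx6 are read in every column, while Cer1, Ripply2, Fgfr2 and Pax3 are read in D4 alone.

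Lefty2 was read both in cells with and in cells without reads of several other genes that divide the mesoderm-like cells. It was read in 3 of the 20 cells with Snai1 reads and 7 of the 28 without, and in 3 of the 22 with Cdh1 reads and 7 of the 26 without. The split was more uneven for Lhx1, with 2 of 25 cells with reads and 8 of 23 without, and for Id1, with 0 of 17 cells with reads and 10 of 31 without. Lefty2-positive cells were 6 of 25 with Foxc2 reads, 5 of 21 with Wnt6 reads, 7 of 30 with Cd36 reads and 7 of 33 with Nkx1-2 reads, shares of 21.2 to 24% beside 20.8% over all mesoderm-like cells. T was read in all 10 positive and 37 of 38 negative cells.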

How the data were processed

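Per the labels and the study's methods, the authors aligned 75-base single-end reads to GRCm38 (mm10) with HISAT2 and counted reads per gene with featureCounts. The sources used here name no version, annotation or strand setting. The deposited values are raw counts of 53379 genes in 91 cells, of which 53274 matched a symbol, and all columns were mapped to cells. Spike-in RNA was in the lysis wells, and each well was sorted to hold 1 cell; no doublet caller was run. Total counts were 709866 to 4439571 per cell, no 2 cells had identical counts and no cell was removed.

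Counts were scaled to CPM in Python 3.11.15 (numpy 2.4.6, pandas 2.3.3, scipy 1.17.1). Log2 ratios are of mean CPM plus a pseudocount of 1, over genes with a read in at least 8 mesoderm-like cells, with each cell left out in turn. The named genes are the 12 furthest per direction (past 2-fold with any cell left out, read in at least 50% of the higher class), the compared Nodal genes, up to 4 past 2-fold of each other list, the genes next to Lefty2 and genes that split the same cells. Not every gene the rule takes is described, and some are not reported here. The members and the 27 lists were chosen with earlier results of these data known. Intervals are exact Clopper-Pearson at 95% confidence and, as reads carry no molecular identifiers, cover counting error only. TMM factors came from edgeR 4.0.16 in R 4.3.3. The steps were tested on simulated data. Gene models and sequences are from GENCODE M21.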

Additional observations from a re-analysis of the deposited data

Results flagged for a closer look

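The Lefty2-positive cell in well H3 had reads in 10448 genes, far above the next of the 10 cells (8852) relative to their whole range. Of 4 measures looked at in this way (total counts, genes with reads, mitochondrial share and Lefty2 CPM) it was the only 1 with such a cell. The gap was 0.566 of the range, above a limit of 0.466 for 10 cells. About 5% of normally distributed groups pass that limit in any 1 measure, and 4 measures were looked at. H3 had reads of both Cdh1 (51.7 CPM) and Snai1 (33.8 CPM). Several negative cells also had both, among them E11 (260 and 44.5 CPM) and G3 (165 and 78.6 CPM). In H3 149 genes were read that no other mesoderm-like cell had, against 64 to 108 in the other 9 positive cells and 49 to 116 in the negative cells. Only 1 of the 149 reached 50 CPM. Whether the well held more than 1 cell was not tested.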

How the results depend on the processing

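The number of Lefty2-positive mesoderm-like cells stayed at 10 of 48 after thinning to 700000 counts and with a minimum of 5 reads, and was 9 of 48 with a minimum of 10 CPM and 9 of 44 where the class was set by Tbx6 in place of Aldh1a2. The counts of genes past 2-fold (781 higher, 1205 lower) depended on how low levels were handled: 294 and 434 with a pseudocount of 10 CPM, 1748 and 2810 with every gene read in at least 1 cell, 193 and 319 with genes read in 24 or more cells, and 1534 and 654 with means of log2(CPM + 1). Of the 1534 genes 34.4% and of the 654 genes 63% were also past 2-fold by mean CPM. With a pseudocount of 0.1 CPM, median-of-ratios or TMM factors, thinning, either Lefty2 minimum, the class by Tbx6, and without F1, D4 or H3 (D4 and H3 chosen after seeing the data), the counts stayed between 747 and 939 higher and between 1154 and 1477 lower. Leaving out each cell in turn gave 723 to 855 higher and 1188 to 1360 lower. Of 56 named genes past 2-fold, 33 kept this in every setting in which they were compared, among them Zbtb22, Rdh10, Gata6, Prrx2, Id1, Jag1, Cdh1, Lhx1, Wnt5b and Stra6. This count leans on the choice, since the 12 furthest genes per direction were taken only if past 2-fold with any cell left out. Zbtb22, Gata6 and Prrx2 also met the minimum of 8 cells only with their positive cells counted. With a pseudocount of 10 CPM 20 of the 56 were no longer past 2-fold, Otx2 and Drap1 among them, and with means of log2(CPM + 1) 14, Nanog and Gm3604 among them. Grhl2 (log2 ratio 1.44) ranged from -0.016 (without F12) to 2.19 with single cells left out. The cause was not tested. The median of the G2 and M phase list was 0.75 with means of log2(CPM + 1). No paired analysis was possible because the cells carry no replicate number shared between the classes and the comparison has no test. With 10 positive cells, a gene absent from all of them can still be read in up to 30.8% of such cells, and no comparison here has a replicate.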
